A study of Mus musculus with 8 samples.

Results

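The genes of the proteasome were examined in quadriceps muscle from 4 Folfiri-treated and 4 Vehicle-treated male CD2F1 mice, 8 weeks old at the start. Members were the genes of the deposited table whose symbol is Psma, Psmb, Psmc, Psmd or Psme followed by a number, without the immunoproteasome subunits Psmb8, Psmb9 and Psmb10. This gave 38 genes of the 12896 listed, and all 38 passed the filter of 40 reads summed over the libraries. Folfiri joins 5-fluorouracil, an antimetabolite, at 30 mg/kg, leucovorin, a folate, at 90 mg/kg and the topoisomerase inhibitor irinotecan (CPT-11) at 24 mg/kg, injected 2 times a week for up to 5 weeks. Vehicle mice received the carrier alone. The mice bore no tumor, and each library was made from quadriceps tissue, so that fibers and other cells of that tissue contribute to it.

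The proteasome is the protease that breaks down proteins tagged with ubiquitin, and in muscle it degrades a large part of the contractile proteins. Its core, the 20S particle, is a barrel in which rings of alpha subunits gate the entry and rings of beta subunits cut the substrate. The 19S regulatory particle sits on the barrel: its base unfolds substrates with a ring of ATPases, and its lid removes the ubiquitin. Other caps, PA28 and PA200, open the same barrel without ATP.

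The Folfiri libraries held 11921092, 21056818, 13477165 and 15789622 counts and the Vehicle libraries 16303015, 11711549, 8505985 and 12655699. All fiber markers looked at were measured, with summed levels of 102461 to 195414 CPM (counts divided by library sizes that TMM corrected) in Folfiri libraries and 136047 to 223205 CPM in Vehicle libraries, and 11 of these 12 genes had a negative fold change. Markers of other cells also moved. The summed level of 11 hepatocyte genes was 8.77 to 265 CPM in Folfiri libraries and 0.785 to 10.97 CPM in Vehicle libraries, highest in Folfiri 1. The 10 macrophage markers tested summed to 136 to 193 CPM in Folfiri libraries and 73.1 to 124 CPM in Vehicle libraries. The 4 brown adipocyte markers tested summed to 1.95 to 4.82 CPM in Folfiri libraries and 1.57 to 368 CPM in Vehicle libraries, highest in Vehicle 2. The 7 endothelial markers summed to 150 to 345 CPM in Folfiri libraries and 280 to 422 CPM in Vehicle libraries, lowest in Folfiri 1, and all 7 had a negative fold change, with a median of -0.41. Their part in the results below was not tested. Fewer cells of a type and less RNA per cell cannot be told apart in such tissue.

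Per length, the members spanned a wide range of levels. Psmb7, which carries the trypsin-like active site, was the most abundant with 257 CPM per kb of listed transcript, averaged over the 8 libraries. Psmb5, which carries the chymotrypsin-like site of the same ring, was the least abundant with 3.62 CPM per kb. Psmb6, the caspase-like subunit, stood at 110 CPM per kb. The catalytic subunits take equal places in the barrel, so that their listed levels are far more unequal than their places.

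Psmb5 is one of 7 members with a near-identical copy elsewhere in mm9. A copy was taken as an alignment at 97% identity or more. It had to cover at least 80% of the transcript or of the listed gene length, whichever was shorter. The 7 members are Psma4, Psma5, Psmb3, Psmb5, Psmd2, Psmd11 and Psme2. The copy of Psmb5 lies at chr7:3181090-3181960 and is 98.97% identical over 871 bases, whereas the gene itself is at chr14:55232957-55236832 on the minus strand. Of all 75-base stretches of the Psmb5 transcript, the length of a read here, 45.9% occur unchanged in that copy. The share was 51.7% for Psme2, whose copy is the gene Psme2b, 42.8% for Psma5, 37.3% for Psmb3, 29.9% for Psma4, 14.9% for Psmd2 and 12.6% for Psmd11. The members with a copy had a median of 29.9 CPM per kb, against 89.2 CPM per kb in the 31 without one. How the authors' pipeline treated reads that map to several places is not given in the sources used here, and the part of the copies in these levels was not tested. The levels of the 7 genes are therefore uncertain. The following 60 coding bases of Psmb5 (mm9, chr14:55235532-55235591, minus strand) and of its copy (chr7:3181360-3181419, plus strand) show how little separates them, with the differing bases in capitals.
Psmb5: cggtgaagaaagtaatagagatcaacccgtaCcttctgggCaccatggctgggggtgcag
copy of Psmb5: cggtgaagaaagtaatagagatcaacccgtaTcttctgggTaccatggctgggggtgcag
Only 2 of the 60 bases differ. The stretch was picked for its differences: coding stretches within an exon and with matching ends were searched, and none had more. Psma3 also shares its place with another gene, since its genomic span overlaps that of 3110056K07Rik on the opposite strand by 3309 bases. These spans include introns, the listed transcript of Psma3 has 1420 bases, and overlap within exons was not computed.

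**Figure D1:**
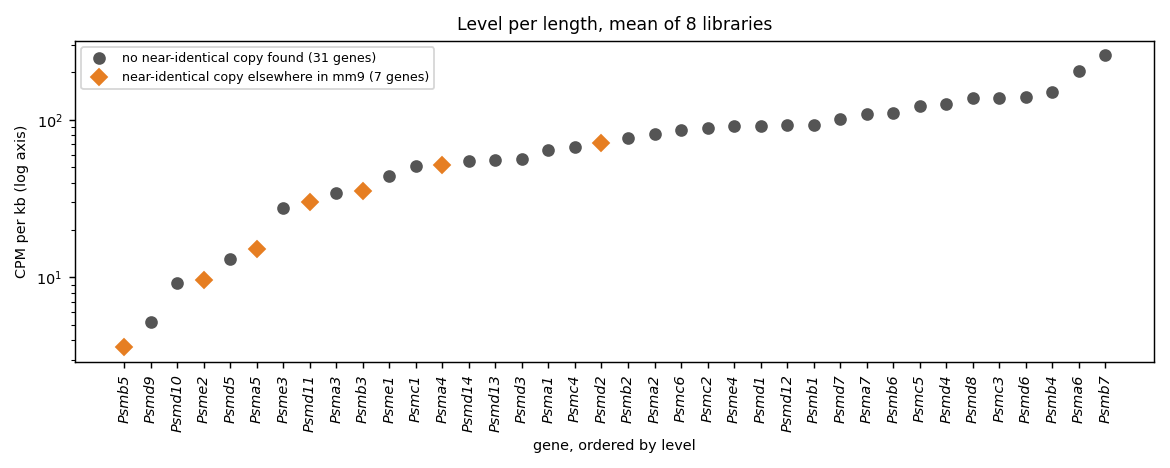
Mean level of each of the 38 members over the 8 libraries, in CPM per kb on a log axis, ordered from low to high. Orange diamonds mark the 7 genes with a near-identical copy, which lie between 3.62 CPM per kb (Psmb5) and 71.3 CPM per kb (Psmd2); grey circles mark the 31 without one, up to 257 CPM per kb (Psmb7).

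To ask whether Folfiri changed the expression of the proteasome, the 2 groups were compared for each member. No member was called higher and none lower in Folfiri muscle by edgeR's quasi-likelihood test with Benjamini-Hochberg adjustment over the 12883 genes tested. Among all genes the same rule called 0.00776% higher and 0% lower, so that the absence of calls among members is not particular to them. At an unadjusted p under 0.05, 0 members were higher, beside 5.48% of all genes, and 1 was lower, beside 4.02% of all genes. That member was Psme4. The adjusted p of the members ran between 0.434 and 0.998. DESeq2, edgeR's exact and likelihood ratio tests and limma voom called 0 members as well, although DESeq2 called 52 genes higher and 25 lower across the table.

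The size of change in the listed counts that remains possible is bounded. The 95% intervals of all 38 log2 fold changes (Folfiri over Vehicle) lay within 1 on either side of 0, between -0.93 at the lowest and 0.81 at the highest. For each member on its own, a change beyond 2-fold in either direction was thus outside the interval, and smaller changes are bounded by each gene's own interval. Of the 12883 genes tested, 9398 likewise had intervals within 1 of 0. For the 7 members with a copy the interval rests on levels that are uncertain, as said above. Of the members 26 had a negative and 12 a positive log2 fold change, beside 48.6% negative and 51.4% positive among all genes. Their median was -0.07 against 0.01 for all genes. With library totals only, a scaling that moves the median of all genes to 0.14, 14 members were negative and their median was 0.06, still under that of all genes.

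All 38 members summed to 3998, 4350, 5077 and 4440 CPM in the Folfiri libraries and 5595, 4230, 5202 and 4800 CPM in the Vehicle libraries. The groups overlapped, with the highest and second lowest sums both in Vehicle muscle. The summed level was 4466 ± 450 CPM in Folfiri and 4957 ± 583 CPM in Vehicle muscle (SD, n = 4 each), a log2 difference of -0.15. As a share of all counts, the members took 0.420% to 0.4998% in Folfiri and 0.448% to 0.502% in Vehicle libraries.

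**Figure D2:**
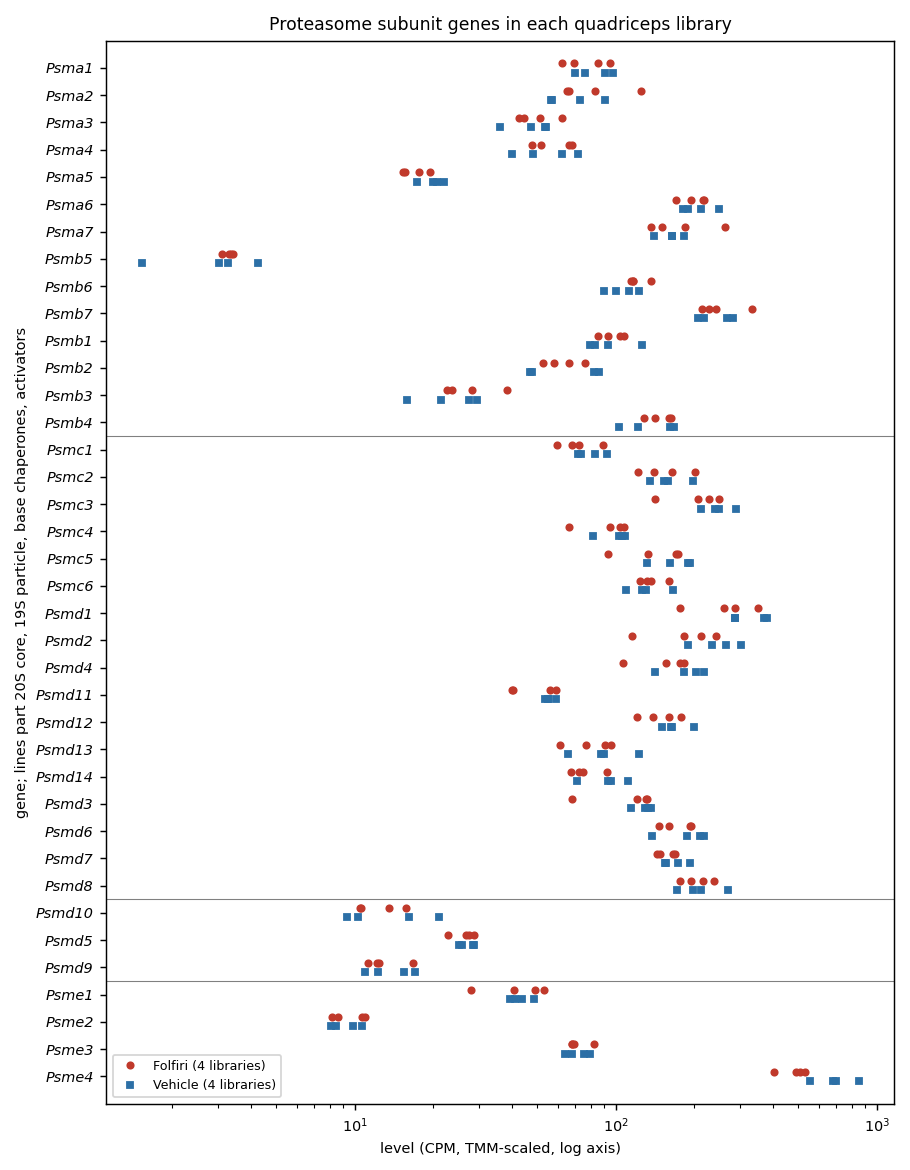
Level of each member in each library, in CPM on a log axis, with the 4 Folfiri libraries as red circles above the 4 Vehicle libraries as blue squares. Only for Psme4, at the bottom, do the groups part, with Folfiri at 402 to 528 CPM and Vehicle at 557 to 851 CPM. Folfiri lay below Vehicle in this way for 2.66% of all genes tested.

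**Figure D3:**
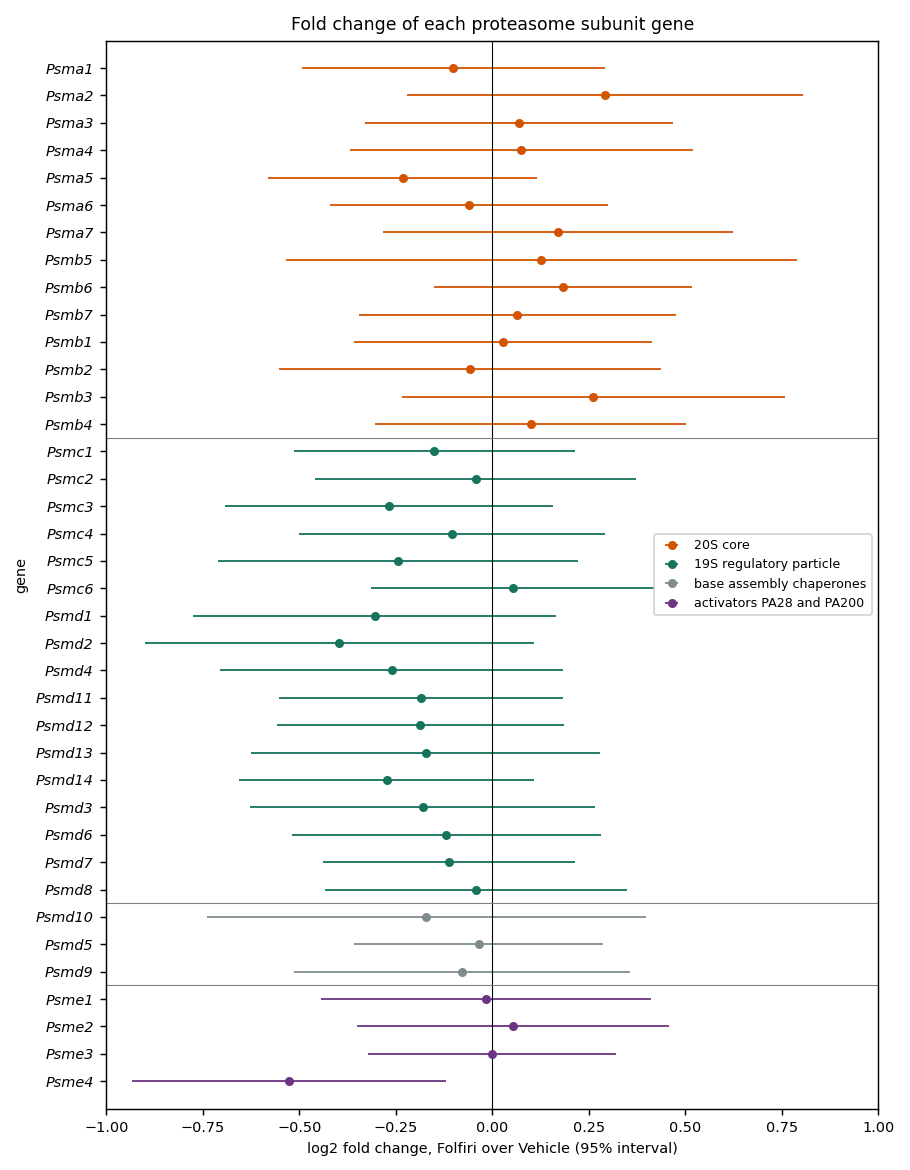
Log2 fold change of each member, Folfiri over Vehicle, with its 95% interval from edgeR's quasi-likelihood fit, colored by part of the complex. All intervals stay between -0.93 and 0.81, and 37 of 38 include 0, Psme4 being the exception.

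The 20S core was represented by 14 genes, 7 of the alpha ring and 7 of the beta ring. No gene passed the test in either direction. Of the 14, 10 had a positive log2 fold change and the median was 0.07, which turned to 4 positive and -0.08 once the trend with gene length was removed. Psma2, a subunit of the alpha ring, had the largest log2 fold change of all members. It had 125, 64.8, 83.5 and 65.9 CPM in Folfiri and 90.5, 72.7, 56.2 and 57.1 CPM in Vehicle libraries. Folfiri 1 alone stood above every Vehicle library, and the other Folfiri libraries lay among them. This gave a log2 fold change of 0.29 ± 0.24 (SE) with an adjusted p of 0.710, and of 0.04 without Folfiri 1.

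Psma5, the alpha subunit with the smallest p and one of those with copies, had 15.5, 17.7, 19.4 and 15.3 CPM in Folfiri and 20.6, 17.3, 21.97 and 19.9 CPM in Vehicle libraries. Its levels overlapped through Vehicle 2 alone. At -0.23 ± 0.16 and an adjusted p of 0.661 its log2 fold change was the most negative of the core.

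No catalytic subunit passed the test. Psmb6 had 116, 114, 136 and 117 CPM in Folfiri libraries, against 123, 90.4, 112 and 100 CPM in Vehicle libraries. All Folfiri libraries lay above Vehicle 2, 3 and 4, and only Folfiri 3 also above Vehicle 1, with a log2 fold change of 0.18 ± 0.15 and an adjusted p of 0.718, and of 0.12 without Folfiri 3. For Psmb7 the levels were 242, 215, 333 and 228 CPM in Folfiri and 266, 206, 282 and 218 CPM in Vehicle libraries, and its log2 fold change was 0.07 ± 0.19 with an adjusted p of 0.928. Folfiri 3 was the highest of all and the others mixed with Vehicle.

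Psmb5 had 3.30, 3.34, 3.09 and 3.41 CPM in Folfiri libraries, against 3.01, 1.53, 3.27 and 4.26 CPM in Vehicle libraries. These rest on few reads, 41 to 77 in Folfiri and 19 to 53 in Vehicle libraries, and the Vehicle libraries enclose the Folfiri ones. Its log2 fold change was 0.13 ± 0.30, with an adjusted p of 0.911. The log2 fold changes of Psmb5 and Psmb7 turned negative with the length trend removed, at -0.075 and -0.12.

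Among the beta subunits without an active site, Psmb3 had the largest log2 fold change. It had 22.5, 28.2, 38.1 and 23.6 CPM in Folfiri and 27.3, 15.9, 29.3 and 21.5 CPM in Vehicle libraries, which overlap. The value was 0.26 ± 0.23 with an adjusted p of 0.730, and 0.076 without Folfiri 3. The other 8 genes of the core lay between -0.10 (Psma1) and 0.17 (Psma7). In Psma7, of the alpha ring, Folfiri 1 was again highest, with 261, 151, 184 and 136 CPM in Folfiri and 183, 140, 164 and 164 CPM in Vehicle libraries.

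The 19S regulatory particle was represented by 17 genes. None passed the test, but 16 of the 17 had a negative log2 fold change, with a median of -0.18, and Psmc6, an ATPase, was the exception at 0.05. With library totals only, where the median of all genes is 0.14, 11 of 17 were negative and the median was -0.06, and with the length trend removed all 17 were negative, at a median of -0.25. By position, the medians were -0.31 for the 3 base subunits that are not ATPases, -0.13 for the 6 ATPases and -0.18 for the 8 lid subunits.

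Psmd2, a scaffold of the base that docks ubiquitin-carrying proteins, had the most negative value of the particle. Its levels were 115, 183, 241 and 212 CPM in Folfiri libraries, against 234, 189, 302 and 265 CPM in Vehicle libraries. Folfiri 1 and Folfiri 2 lay below every Vehicle library, and Folfiri 3 and Folfiri 4 above Vehicle 2. The log2 fold change was -0.40 ± 0.23 with an interval of -0.90 to 0.11 and an adjusted p of 0.596. Without Folfiri 1 it was -0.22.

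Psmd1, the second large scaffold of the base, had 175, 259, 349 and 287 CPM in Folfiri libraries and 379, 287, 370 and 286 CPM in Vehicle libraries. Folfiri 3 was the only Folfiri library clearly above the lowest Vehicle library. On the log2 scale the difference was -0.31 ± 0.22 with an adjusted p of 0.669, and it was -0.15 without Folfiri 1 and -0.46 without Folfiri 3. Psmc3, the ATPase with the smallest p, had 141, 206, 248 and 227 CPM in Folfiri and 240, 211, 289 and 248 CPM in Vehicle libraries. The value was -0.27 ± 0.20 with an adjusted p of 0.680, and Folfiri 1 was again far below the rest. Without it the value was -0.12.

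In the lid, Psmd14, the metalloprotease that cleaves ubiquitin chains off the substrate, had the smallest p. It had 72.4, 67.1, 92.9 and 75.04 CPM in Folfiri and 95.7, 71.1, 112 and 93.3 CPM in Vehicle libraries. Only Vehicle 2 fell within the Folfiri range. The log2 fold change was -0.27 ± 0.18 with an adjusted p of 0.636, and -0.17 without Vehicle 3. The other 12 genes of the particle with a negative value lay between -0.26 (Psmd4) and -0.04 (Psmc2 and Psmd8). Psmd4, a ubiquitin receptor of the base, had 106, 156, 182 and 176 CPM in Folfiri and 182, 141, 217 and 203 CPM in Vehicle libraries. Psmd3, a subunit of the lid, had 68.1, 131, 132 and 121 CPM in Folfiri and 136, 114, 130 and 132 CPM in Vehicle libraries, so that Folfiri 1 alone lay below the rest.

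**Figure D4:**
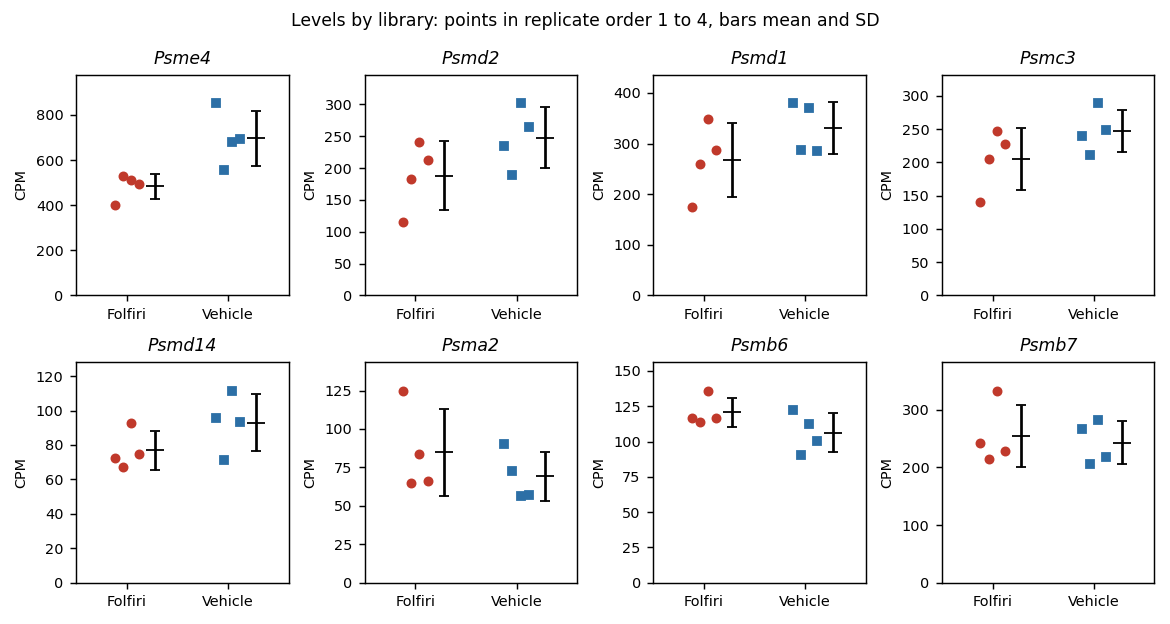
Level in CPM of 8 members in each library, with Folfiri as red circles to the left of Vehicle as blue squares, in replicate order, and the mean and SD beside them. Psme4 averaged 483 CPM in Folfiri and 696 CPM in Vehicle muscle without overlap, and in each of the other 7 panels the groups overlap. Folfiri lay below Vehicle without overlap for 2.66% of all genes tested.

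The core and the regulatory particle did not move alike in every library. The ratio of the summed CPM of the 20S core to that of the 19S particle was 0.784, 0.520, 0.555 and 0.480 in the Folfiri libraries and 0.495, 0.503, 0.459 and 0.461 in the Vehicle libraries. Folfiri 1 stood far above all others, and Folfiri 4 lay within the Vehicle range. Folfiri 1 was the lowest of the 8 libraries for 13 of the 17 particle genes (76.5%), beside 22.5% of all genes, and for 0 of the 14 core genes. Its particle genes lay a median of 0.48 below the Vehicle mean on the log2 scale and its core genes 0.11 above it. Vehicle libraries were uneven as well. Vehicle 2 was the lowest for 7 of the 14 core genes (50%), beside 15.1% of all genes. Vehicle 1 was the highest for 9 of the 17 particle genes (52.9%), beside 11.4% of all genes.

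Folfiri 1 also stood apart in the whole table, as it did in its hepatocyte and endothelial markers, whose part here was not tested. It was the highest library for 23.9% of all genes. Its median correlation with the libraries of its own group, 0.949, was the lowest of the 8, with Vehicle 2 next at 0.953. Without Folfiri 1, the core had 7 positive and 7 negative values with a median of 0.002. The particle then had 15 negative values of 17 with a median of -0.09, against a median of -0.01 for all genes. Without Folfiri 3 the core had 7 positive values and a median of 0.02, and without Vehicle 2 it had 6 and a median of -0.01.

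Fold changes also moved with gene length. The core genes had a median listed length of 1016.5 bases and the particle genes 1564 bases. Over all genes tested, the median log2 fold change was 0.20 for those under 1000 bases, 0.08 between 1000 and 2000 bases, 0.003 between 2000 and 4000 bases and -0.06 from 4000 bases on. In Folfiri 1 the shortest class lay a median of 0.51 above the Vehicle mean, and the class of 1000 to 2000 bases 0.16 above it. The median lengths of core and particle fall in the class of 1000 to 2000 bases, but the parts are not matched in length. Psma2, Psma6, Psmb2, Psmb3, Psmb4, Psmb5 and Psmb7 of the core are under 1000 bases, from 731 (Psmb3) to 997 (Psma6). The particle genes ran from 1277 bases (Psmc5) to 3256 bases (Psmd1). The particle genes of Folfiri 1 lay a median of 0.48 below the Vehicle mean. Across 12883 genes, which are not independent replicates, Spearman's rho between length and log2 fold change was -0.22. With the length trend removed in each library, the median was -0.08 in the core, -0.25 in the particle and -0.19 over all 38 members, of which 34 were negative, against -0.01 for all genes. The median of the particle lay below that of the core with and without the trend, a difference that was described and not tested.

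**Figure D5:**
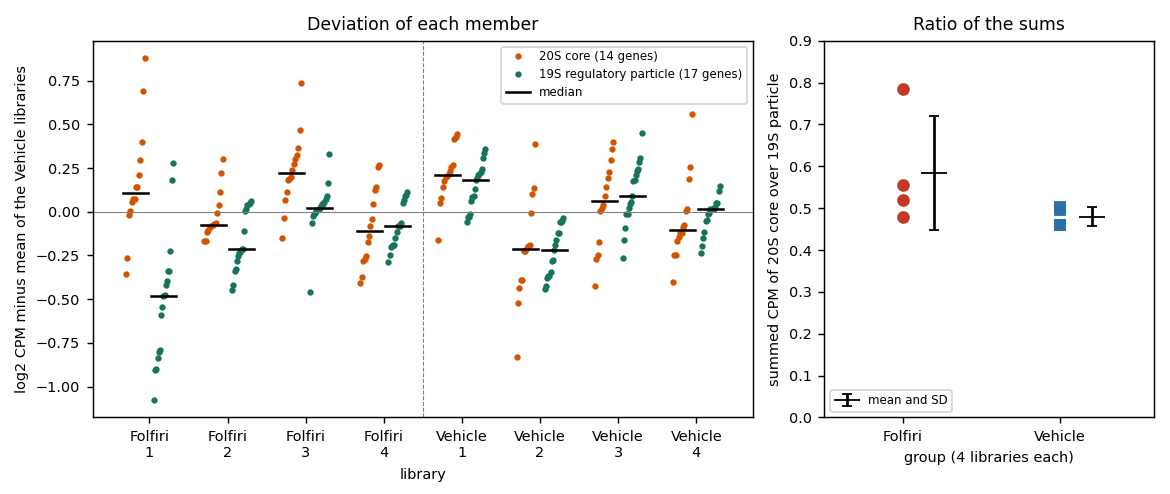
Left, the deviation of each member from the mean of the Vehicle libraries on the log2 scale in each library, for 14 genes of the 20S core (orange) and 17 of the 19S particle (green), with black bars for medians. Right, the ratio of the summed CPM of core and particle by group with mean and SD; Folfiri 1 lies at 0.784 and the other 7 libraries between 0.459 and 0.555.

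The chaperones that assemble the base, Psmd5, Psmd9 and Psmd10, had low levels of 5.22 to 13.1 CPM per kb and passed no test. All 3 values were negative, and 2 were positive with library totals only. Psmd10 (gankyrin) had 15.7, 10.5, 13.5 and 10.5 CPM in Folfiri libraries, against 16.1, 9.36, 21.1 and 10.3 CPM in Vehicle libraries, which overlap entirely. The value was -0.17 ± 0.26 on the log2 scale with an adjusted p of 0.853.

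Among the caps that open the barrel, no PA28 subunit passed the test and their means lay close. Psme1 averaged 42.6 ± 11.1 CPM in Folfiri and 43.1 ± 3.95 CPM in Vehicle muscle, Psme2 averaged 9.59 ± 1.41 CPM in Folfiri and 9.26 ± 1.18 CPM in Vehicle muscle, and the nuclear Psme3 averaged 71.8 ± 7.12 CPM in Folfiri and 71.8 ± 7.10 CPM in Vehicle muscle (SD, n = 4 each). Their log2 intervals were -0.44 to 0.41 for Psme1, -0.35 to 0.46 for Psme2 and -0.32 to 0.32 for Psme3.

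Psme4, which encodes PA200, a cap known for the degradation of acetylated histones and for its part in the response to DNA damage, was the one member whose groups did not overlap. The gene is at chr11:30671775-30780361 of mm9 on the plus strand. It had 402, 528, 510 and 492 CPM in the Folfiri libraries and 851, 557, 679 and 695 CPM in the Vehicle libraries. The groups did not overlap, the nearest libraries being Folfiri 2 and Vehicle 2, and 2.66% of all genes were likewise lower in all Folfiri libraries. No member had all Folfiri libraries above Vehicle, beside 2.87% of all genes. The means were 483 ± 56.0 CPM in Folfiri and 696 ± 121 CPM in Vehicle muscle (SD, n = 4 each).

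The log2 fold change of Psme4 was -0.53 ± 0.19 (SE), with an interval of -0.93 to -0.12. Its unadjusted p of 0.0154 ranked 451 of 12883, and the quasi-likelihood test of edgeR gave an adjusted p of 0.434, so that it did not pass the threshold. The adjusted p was 0.142 with DESeq2. Without Vehicle 1, the highest library, the log2 fold change was -0.41 with an unadjusted p of 0.0538. The direction held in each of the 20 alternatives, from -0.62 without Vehicle 2 to -0.39 with library totals only. With 6442 listed bases it is a long gene, and its value was -0.46 with the length trend removed.

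Next, the genes that build, feed and control the proteasome were looked at. The inducible subunits that replace the catalytic ones in immune cells and under interferon, Psmb8, Psmb9 and Psmb10, all had positive values, in each scaling tried, and none passed the test. Psmb8 had 5.24, 7.38, 26.001 and 13.6 CPM in Folfiri and 5.12, 9.36, 9.94 and 7.80 CPM in Vehicle libraries. Folfiri 3 and Folfiri 4 were above every Vehicle library, while Folfiri 1 and Folfiri 2 were not. The log2 fold change was 0.70 ± 0.42 with an adjusted p of 0.607, and those of Psmb9 and Psmb10 were 0.66 ± 0.39 and 0.29 ± 0.21. Without Folfiri 3 the 3 values were 0.12, 0.28 and 0.25 in that order of genes, and without Folfiri 4 Psmb10 was at 0.11. The summed macrophage markers were at 141, 138, 193 and 136 CPM in Folfiri libraries, against 79.4, 92.3, 124 and 73.1 CPM in Vehicle libraries. They were highest in Folfiri 3, as Psmb8 was, but also above Vehicle in Folfiri 1 and 2, where Psmb8 was not, and their part in this was not tested.

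The list of core assembly chaperones had 4 of 5 positive values, 2 of which had an unadjusted p under 0.05, beside 5.48% of all genes on the higher side, and none passed after adjustment. With the length trend removed 2 of the 5 were positive and the median was -0.12, against 0.12 with it. The 2 genes with an unadjusted p under 0.05 were Psmg3 and Psmg4, named after their values were seen. Their log2 fold changes were 0.57 ± 0.22 and 0.69 ± 0.31. Both are short, at 839 and 554 listed bases. Pomp, the maturation factor of the core, had 76.3, 63.8, 89.5 and 77.5 CPM in Folfiri and 78.6, 60.1, 74.0 and 69.5 CPM in Vehicle libraries, a log2 fold change of 0.12 ± 0.16. It was -0.13 with the length trend removed.

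Of 13 other proteins that bind the proteasome, 11 had a negative value and none passed the test, while 9 were negative with library totals only. Usp14, the deubiquitinase on the base, had 48.7, 86.9, 80.9 and 80.7 CPM in Folfiri libraries, against 110, 86.8, 81.3 and 89.4 CPM in Vehicle libraries. Folfiri 1 was far below the rest, and the log2 fold change was -0.31 ± 0.20 with an adjusted p of 0.631, or -0.15 without Folfiri 1. The groups of AI314180 (Ecpas, which tethers core and particle), also named after its values were seen, did not overlap, with 406, 480, 455 and 448 CPM in Folfiri and 676, 513, 556 and 543 CPM in Vehicle libraries, as for 2.66% of all genes. Its log2 fold change was -0.36 ± 0.17 with an adjusted p of 0.533. Psmf1, an inhibitor of the core, and Adrm1, a ubiquitin receptor of the base that the choice by symbol leaves out, were at -0.07 ± 0.20 and 0.15 ± 0.18.

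Nrf1, the product of Nfe2l1, is the transcription factor that raises proteasome genes when the protease is inhibited. Nfe2l1 had 585, 455, 614 and 593 CPM in Folfiri libraries, against 562, 663, 734 and 690 CPM in Vehicle libraries. Only Vehicle 1 lay within the Folfiri range. Its log2 fold change was -0.24 ± 0.18 with an adjusted p of 0.687. The list drawn up around its activation held Nfe2l1 itself, Ddi2, Ngly1, Vcp and Nfe2l2, which encodes the related factor Nrf2. All 5 genes of this list had negative values, also with library totals only, and none passed the test.

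Ubb, a gene that encodes ubiquitin itself, had a low listed level of 3.03 CPM per kb. It had 1.51, 3.08, 4.07 and 4.42 CPM in Folfiri libraries, against 3.42, 3.87, 4.19 and 3.70 CPM in Vehicle libraries. Folfiri 1 and Folfiri 2 lay below every Vehicle library, Folfiri 3 lay within the Vehicle range and Folfiri 4 above it. The value was -0.21 ± 0.32 on the log2 scale with an adjusted p of 0.850, and it was 0.023 without Folfiri 1.

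The main ligases of muscle atrophy, Trim63 and Fbxo32, had log2 fold changes larger in size than that of any member. Trim63 (MuRF-1) had 203, 261, 230 and 211 CPM in Folfiri libraries and 366, 277, 443 and 362 CPM in Vehicle libraries, without overlap. Its log2 fold change was -0.68 ± 0.18, with an adjusted p of 0.307, and of the tools run DESeq2 alone put it past the threshold, at 0.0306. Fbxo32 (atrogin-1) had 409, 498, 375 and 229 CPM in Folfiri and 639, 527, 668 and 486 CPM in Vehicle libraries, with Folfiri 2 just above Vehicle 4. This gave -0.62 ± 0.23 on the log2 scale, with an adjusted p of 0.460. All 8 genes of this list, ligases and Foxo factors, had negative values in each scaling tried, 4 of them with an unadjusted p under 0.05, beside 4.02% of all genes on the lower side, and 0 passed the test after adjustment.

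Promoters were taken from RefSeq (GRCm38.p6), from 250 bases before to 50 bases after the start of each gene, and 32 of the 38 members matched. Nrf1 binds the antioxidant response element, searched here as TGACNNNGC on both strands. It occurred in 6 of the 32 promoters (18.8%), beside 13.99% of 27025 genes with a promoter of the same length. The CCAAT box, CCAAT on either strand, occurred in 37.5% of members and 41.1% of genes. The GC box, GGGCGG on either strand, occurred in 65.6% of members and 38.2% of genes. The 27025 genes are not limited to the 12883 tested in this muscle, and shares over the tested genes were not computed. These are matches of letters, not sites shown to be bound, and the 6 with the element are printed because they include Psme4 and 2 of the catalytic subunits. Each is given in the direction of its gene with the element in capitals, at chr14:54618024-54618052 minus for Psmb5, chr11:70525338-70525366 plus for Psmb6, chr14:45329587-45329615 plus for Psmc6, chr11:107479278-107479299 plus for Psmd12, chr5:123228149-123228177 plus for Psmd9 and chr11:30771758-30771786 plus for Psme4.
Psmb5: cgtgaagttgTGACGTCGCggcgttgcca
Psmb6: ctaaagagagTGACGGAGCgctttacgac
Psmc6: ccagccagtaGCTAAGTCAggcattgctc
Psmd12: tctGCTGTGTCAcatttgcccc
Psmd9: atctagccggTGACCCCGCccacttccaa
Psme4: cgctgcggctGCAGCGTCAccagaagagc
The element reads on the strand of the gene in Psmb5, Psmb6 and Psmd9 and on the other strand in Psmc6, Psmd12 and Psme4. In Psmb5, Psmb6, Psmd9 and Psme4 it begins 47, 9, 31 and 7 bases before the start site, and in Psmc6 and Psmd12 227 and 247 bases before it. The log2 fold changes of these genes were 0.13, 0.18, -0.08 and -0.53 for those 4 and 0.05 and -0.19 for Psmc6 and Psmd12, so that they lie on both sides of 0.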

How the data were processed

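Per the labels and the study's methods, the authors built strand-specific poly(A) libraries of mouse quadriceps with a SOLiD kit, read 75 bases, mapped with bfast to mm9 and counted RefSeq genes with NGSUtils. Whether counting used strand is not given in the sources used here. The deposited counts are unscaled reads per gene, as the authors counted them. A deposited signal value is the authors' count times 1 factor for its library, and these columns entered no test. The deposited columns of fold changes and p-values from the authors' own edgeR comparison were not used.

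Raw counts of genes with at least 40 summed reads were scaled by TMM and tested with edgeR 4.0.16 (R 4.3.3) by its quasi-likelihood test, and p was adjusted by Benjamini-Hochberg over all 12883 genes and called under 0.05. Errors of log2 fold changes are SE. The fit had 6 residual degrees of freedom and a common biological coefficient of variation of 0.261. The p-values measure the spread between mice. Replicates differed by more than sampling noise. Scripts were tested on simulated data. Alternatives used DESeq2 1.42.0, limma 3.58.1 voom, other tests in edgeR, RLE factors, library totals only, other filters, a replicate block and leaving out each library, and, chosen after seeing the data, removal of each library's trend with gene length or transcript GC. Copies were sought with minimap2 2.31-r1302 in mm9. Named members were, by rule, the smallest p in each class, the catalytic subunits, the 3 highest and the 3 lowest fold changes, and the most and least abundant per length, with 12 related genes, of which 1 is not reported here, and others are said to be named after their values were seen. Members and lists were chosen with earlier results of these data known.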

Additional observations from a re-analysis of the deposited data

Results flagged for a closer look

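Among the 4 Folfiri libraries, a single one stood away from the others for 3 genes, out of 120 groups of 4 looked at by Dixon's gap, where chance alone gives about 1 in 20. Psmb6 was at 136 CPM in Folfiri 3, against 114 to 117 CPM in the other Folfiri libraries. Psme3 was also highest in Folfiri 3, at 82.5 CPM against 67.7 to 69.4 CPM. Usp14 was lowest in Folfiri 1, at 48.7 CPM against 80.7 to 86.9 CPM.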

How the results depend on the processing

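No member was called under any of the 20 alternatives, and their median log2 fold change moved in each by less than 0.145, the SD between libraries of their median log2 level. That SD is larger than the size of the median itself, -0.07, whose sign turned with library totals only (0.056). The log2 difference of the summed level of the members was also computed with RLE factors (-0.16) and library totals only (-0.02). Leaving out 1 library at a time, the median ran between -0.13 (without Vehicle 2) and -0.03 (without Vehicle 1), the summed level between -0.22 and -0.09, members with Folfiri above Vehicle between 0 and 1, and members with Folfiri below between 1 and 3. The members below were Psmc1, Psmd1 and Psme4 without Folfiri 3 and Psma5, Psmd14 and Psme4 without Vehicle 2, and 1 member, Psmb6, was above with library totals only and without Vehicle 1. The shares of all genes, 2.66% below and 2.87% above, are for all 8 libraries under the main scaling. Groups part more readily with 1 library left out, so that these counts are not read as particular to the members. Across all genes the quasi-likelihood test called 1 higher and 0 lower. Against this the exact test called 65 and 21, the likelihood ratio test 76 and 25, DESeq2 52 and 25 and voom 2 and 1. Trim63 passed with DESeq2 (-0.69). Signs turned for Psmf1 with voom (0.037) and library totals only (0.036), and with the length trend removed for Psmb5 (-0.075), Psmb7 (-0.12) and Pomp (-0.13). Leaving out 1 library also turned signs, with ranges of -0.17 to 0.062 for Psmf1, -0.096 to 0.35 for Psmb5, -0.098 to 0.14 for Psmb7, -0.33 to 0.071 for Psmd10 and -0.39 to 0.023 for Ubb. The cause was not tested.

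Libraries share replicate numbers between groups, and the deviations of same-numbered libraries correlated at 0.3003, 0.136, 0.0557 and 0.196, so that the numbers were not taken as pairs. Of the Folfiri libraries, 1 and 2 correlated best with the Vehicle library of their own number, and 3 and 4 did not. With the replicate block 0 members were called, the median was -0.065, Psme4 was at -0.52, and 3 genes of the whole table were called.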
